A study of Gallus gallus with 24 samples.

Results

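The probe sets described here are those whose level was lower in the ventricles of chick embryos after conotruncal banding. They were chosen on the banding comparison itself. A probe set entered when its ID began with Gga, its highest mean over the 12 pools of tissue reached 5 on the log2 scale, its mean in the banded pool was lower than in the normal pool of the same day by 0.7 or more, and both banded arrays lay below both normal arrays. These conditions kept 72 of the 18930 probe sets that passed the level, or 0.38%, out of 38535 on the array. Of the 72, 59 were paired with 1 gene symbol and represented 55 genes, while 13 had no gene and are given by ID.

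Pools of chick ventricle were measured in duplicate on a one-colour oligonucleotide array, with 1 pool of 6 to 12 specimens per condition. The 2 arrays are repeats of the same RNA, so each condition had n = 1. Normal embryos gave pools of both ventricles at embryonic day 4 (E4), E5 and E6, and separate left and right pools at E6, E8 and E10. Conotruncal banding was carried out in ovo at day 4, and a pool of both ventricles was made at E5. Partial ligation of the left atrial appendage was also carried out at day 4, and the left and right ventricles were pooled separately at E8. The labels name no sham-operated pool, strain or genotype, so either operation cannot be told apart from surgery in general, and the spread between embryos was not measured. Array medians lay between 4.02 and 4.14. In such pooled tissue, fewer cells of a type and less RNA per cell cannot be told apart.

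Conotruncal banding narrows the outflow tract of the embryonic heart, so the ventricles pump against a higher pressure. The embryonic ventricle is known to answer pressure load with growth of its compact and trabecular muscle. Ligation of the left atrial appendage instead lowers the inflow to the left ventricle and sends more blood through the right, and serves as a model of left ventricular underdevelopment.

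Cardiomyocyte genes marked all pools as heart muscle, and their levels hardly differed between the E5 pools. The summed level of 15 probe sets of 11 cardiomyocyte markers was 18.65 in the normal and 18.59 in the banded E5 pool on the log2 scale, and it lay between 18.51 and 18.76 in the 12 pools. None of these 15 met the banding rule. Cardiac troponin T (TNNT2) stood at 15.08 in the normal and 14.96 in the banded pool, and cardiac actin (ACTC1) at 15.24 and 15.20.

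The widest decrease was that of LOC107052719, a gene with no assigned name. Its normal E5 arrays read 7.86 and 7.71 and its banded arrays 3.63 and 3.62, a difference of -4.15 on the log2 scale. The banded arrays lay below the median of all probe sets on an array, and with all values under 5 set to 5 the difference was -2.78. The 2 pairs of arrays lay far apart, but the level also moved widely in normal tissue, from 3.63 (left ventricle, E10) to 9.28 (right ventricle, E6). ADAMTSL3, a secreted matrix glycoprotein related to the ADAMTS proteases but without their catalytic part, read 7.31 and 7.22 on the normal and 4.67 and 5.15 on the banded arrays, a 5.12-fold decrease. Both probe sets of LOC770705 were among the 5 widest. Gga.19447.2.S1_s_at went from 10.82 and 10.95 on the normal to 8.82 and 8.84 on the banded arrays, and the brighter Gga.19447.1.S1_at from 12.19 and 12.26 to 10.69 and 10.57. These probe sets share a cluster number and may read the same transcript, so they are not independent. Of the members without a gene, Gga.17931.1.S1_at was the lowest relative to normal, at 7.10 and 7.09 on the normal and 5.61 and 4.55 on the banded arrays, while the other normal pools lay between 7.26 and 10.21. Gga.11735.1.S1_at read 7.42 and 7.66 against 5.91 and 5.99.

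Secreted signals, receptors and channels made up part of the members, a grouping by known role made after the values were seen. FGF1, a growth factor that acts on muscle and vessel cells, read 4.70 and 4.69 on the normal and 3.41 and 4.39 on the banded arrays. Osteocrin (OSTN), a muscle-secreted peptide that binds the natriuretic peptide clearance receptor, read 6.75 and 6.90 against 5.66 and 5.75. SEMA6A, a transmembrane semaphorin that guides axons and migrating cells, read 7.24 and 7.73 against 6.25 and 6.13. Of these 3, FGF1 had the least certain gap, since its banded arrays lay 0.98 apart on the log2 scale and all its E5 arrays lay under 5.

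Among the receptors, AGTR1, the type 1 receptor for angiotensin II, stood at 7.64 and 7.84 on the normal arrays and at 7.07 and 6.99 on the banded ones. TNFRSF1B, a receptor for tumour necrosis factor, stood at 8.44 and 8.37 against 7.55 and 7.55. The AMPA-type glutamate receptor subunit GRIA3 stood at 6.80 and 6.45 against 5.81 and 5.19. Among these 3 the decrease was widest for GRIA3. The adenosine A1 receptor (ADORA1), which slows the heart, was lower by a pool mean difference of -0.83, from 6.34 to 5.51, and the Eph receptor EPHA6 by -0.77, from 4.45 to 3.68. KCNH7, a potassium channel of the ERG family, read 6.92 and 7.06 on the normal and 6.30 and 6.26 on the banded arrays.

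Other members have known roles in metabolism or transport. SUCLG2, a subunit of the GTP-forming succinyl-CoA ligase of the citric acid cycle, read 12.00 and 12.01 on the normal and 11.23 and 11.25 on the banded arrays. Gga.9819.1.S1_s_at, which has no gene, read 12.11 and 12.03 against 11.30 and 11.34. Together with Gga.19447.1.S1_at of LOC770705 these were the 3 members with the highest normal E5 level. CIDEC, a lipid droplet protein, stood at 7.46 and 7.28 against 6.21 and 6.40. PGM2L1, which makes glucose 1,6-bisphosphate, read 5.77 and 5.47 on the normal arrays but 3.63 and 4.75 on the banded ones, and SLC2A5, the fructose transporter GLUT5, read 4.93 and 5.40 against 4.29 and 3.69. Outside these roles, the casein kinase CSNK1D stood at 4.38 and 4.78 on the normal and 3.83 and 2.78 on the banded arrays, all under 5. Brighter probe sets of CSNK1D, at 10.89 and 10.23 in the normal E5 pool, differed by only -0.14 and 0.01. The banded arrays of these last 3 members disagreed by more than 0.5, whereas those of SUCLG2 differed by 0.02.

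MEF2C, a transcription factor needed for heart muscle differentiation, read 6.11 and 6.60 on the normal and 5.76 and 5.43 on the banded arrays, a difference of -0.76. ZC3H11A, a zinc finger protein that takes part in mRNA export, read 5.34 and 5.56 against 4.12 and 4.13. DGCR8, the partner of Drosha in the processing of primary microRNAs, read 7.61 and 7.30 against 6.78 and 6.49. The zinc finger factor SP1 went from a pool mean of 5.95 to 5.24 and SMARCD2, a subunit of the SWI/SNF chromatin remodelling complexes, from 5.57 to 4.60. Among genes known from immune responses, GBP, a guanylate-binding protein of the interferon-induced GTPases, read 9.50 and 9.64 on the normal and 8.13 and 8.09 on the banded arrays. XCL1, the chemokine lymphotactin, read 7.68 and 8.15 against 7.14 and 7.25.

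Most members differed by less than 2-fold. The median difference over the 72 members was -0.86 on the log2 scale, against 0.0036 over all 18930 probe sets, and the range was -4.15 to -0.70. Of the 72, 28 were lower by at least 2-fold, which is 0.148% of all probe sets tested, and 4 by at least 4-fold. These values chose the members and carry no test. Just inside the threshold lay WDR90 at -0.71 (6.91 to 6.21), the neutral sphingomyelinase SMPD3 at -0.70 (6.79 to 6.08) and the integrin subunit ITGB4 at -0.70 (4.77 to 4.07). Just outside lay LRCH3 at -0.698, Gga.10770.1.S1_x_at at -0.694 and TDRD9 at -0.694. One further probe set, Gga.5073.1.S1_at, was lower by -0.84, from 5.64 to 4.80, but its arrays overlapped.

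**Figure D1:**
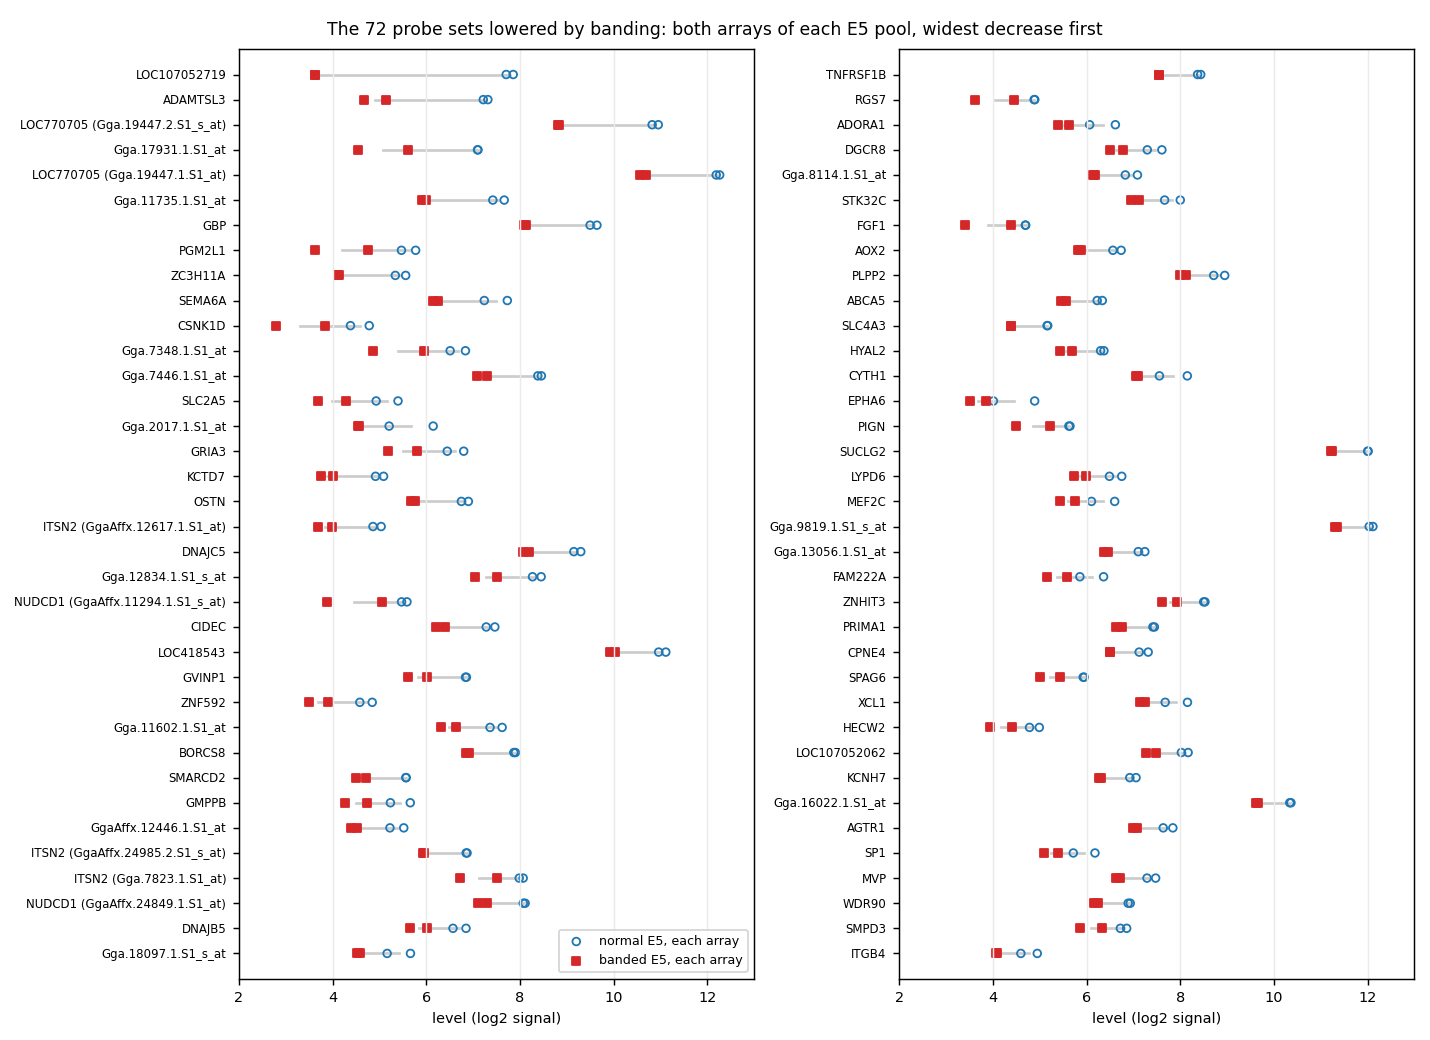
Level on each array of the normal E5 pool (open circles) and the banded E5 pool (red squares) for the 72 members, in log2 signal, ordered by the size of the decrease and continued in the right panel; grey lines join the pool means. LOC107052719 at the top dropped from 7.78 to 3.63, whereas most members differed by about the median of -0.86 and lay at low levels.

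The members were dim and noisy probe sets compared with the rest. Their median level in the normal E5 pool was 6.89, against 9.04 over all tested, and 16 of 72 (22.2%) reached 8, against 65.5% of all tested. In the banded pool 22 members lay under 5, and 8 members, FGF1 among them, lay under 5 in the normal E5 pool too. The SD between duplicate arrays had a median of 0.131 over the members in the banded pool and 0.123 in the normal pool, against 0.045 and 0.052 over all tested. The gap between the lower normal and the higher banded array was 0.64 at the median member and at least 0.5 in 57 of the 72, with the narrowest at 0.16. When the rule was applied to single arrays, it kept 131 or 141 probe sets, of which 46 and 60 were among the 72.

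Seen against the other normal ages, the members were sorted into 3 kinds. The rule itself favours a low banded and a high normal E5 level, and the shares of these kinds over all tested were not counted. In 25 the banded level lay below every other normal pool, in 17 the normal E5 level lay above every other normal pool, and in 30 both E5 levels lay within the range of the other 8 normal pools; 0 members were of the first 2 kinds at once. ADAMTSL3 was of the first kind, with 4.91 in the banded pool and 5.13 to 7.92 in the other normal pools. So were ZC3H11A, with 4.13 against 4.31 to 8.42, MEF2C, with 5.59 against 5.89 to 6.66, and all 3 probe sets of the endocytic scaffold ITSN2. GBP was of the second kind. It stood at 9.57 in the normal E5 pool and between 7.40 and 8.16 in the other normal pools, so the banded level of 8.11 was close to normal tissue of other ages. The anion exchanger gene SLC4A3 stood at 5.16 in the normal E5 pool, against 4.39 after banding and a range of 4.27 to 4.44 elsewhere. It was 1 of 2 members that did not reach 5 outside the E5 pools. The level minimum and the rule therefore placed it in the second kind.

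Other probe sets of the same genes were compared between the same E5 pools. Of the 55 genes, 37 had 80 further probe sets, of which 42 passed the level and covered 29 genes. In 38 of the 42, covering 26 genes, the normal E5 level was itself 5 or more. None of these 38 was lower by 0.7 or more; their median difference was -0.16, 27 lay below 0, and 27 lay between -0.3 and 0.3. The other 4, of ADAMTSL3, GRIA3, MEF2C and RGS7, stood at 3.68 to 4.56 in the normal E5 pool. Among the probe sets that did not pass the level, 1 met the other conditions of the rule, a probe set of CPNE4 that went from 4.42 to 3.64. The lowest of the 38 was a further probe set of the calcium-binding protein gene CPNE4 at -0.57 and the highest one of ZNHIT3 at 0.30. The other probe sets of MEF2C differed by -0.38 and -0.11, the former at 6.98 in the normal E5 pool and thus at a level like that of the member, and the latter at 4.56. Those of SUCLG2 differed by -0.05, 0.07 and 0.15. Those of TNFRSF1B, at 8.59, 9.63 and 10.29 in the normal E5 pool, differed by -0.09, -0.15 and 0.01. For KCNH7 the passing probe sets differed by -0.29 and -0.39, and for ZC3H11A the passing one, at 6.40, by 0.04. For GBP the value was -0.20, for SEMA6A -0.39, for DGCR8 -0.43 and for PGM2L1 -0.30. Probe sets of a gene can read different transcripts or ends of a transcript. Which of them follows the gene's total RNA was not tested.

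**Figure D2:**
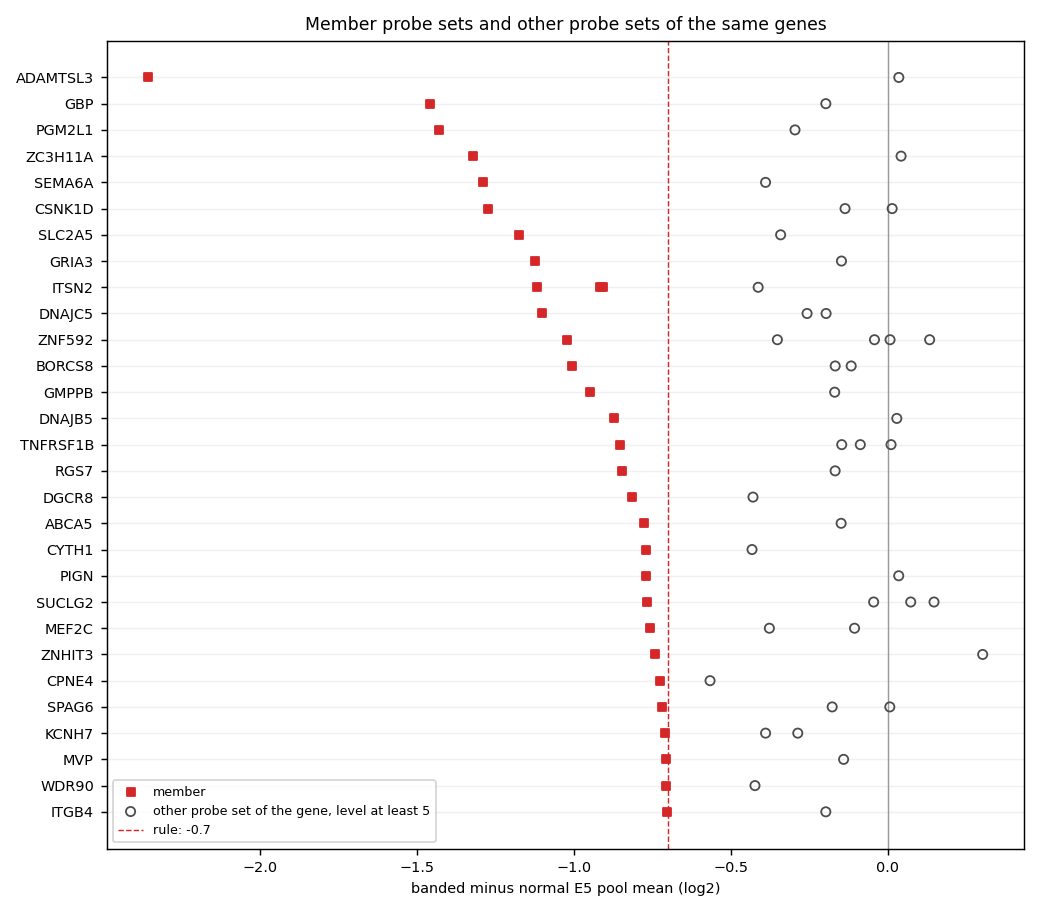
Banded minus normal E5 pool mean (log2) for member probe sets (red squares) and for the other probe sets of the same 29 genes that reached the level of 5 (open circles); the dashed line is the rule's threshold of -0.7. The open circles lie between -0.57 and 0.30, all to the right of the threshold.

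For 3 genes several probe sets were members. The 3 of ITSN2 differed after banding by -1.12, -0.92 and -0.91, and the fourth that passed the level by -0.41. The members of NUDCD1 differed by -1.07 and -0.89, and those of LOC770705 by -2.06 and -1.60. ITSN2 is therefore the named gene with the most members. One of its members, GgaAffx.12617.1.S1_at, lay near the level minimum, with arrays at 5.04 and 4.86 in the normal and 3.69 and 3.98 in the banded pool.

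Lists of genes of contraction, load response and cardiac development held 0 or 1 member each. Since 0.38% of all tested met the rule, such counts in lists of this size cannot set them apart from other probe sets. The higher counts use the same threshold in the other direction, and their share over all tested was not counted. None of 48 tested probe sets of sarcomere and contraction genes met the banding rule in either direction, and the median difference of that list was 0.02. Calcium handling and conduction had 0 of 27 lower and 1 higher, and extracellular matrix 0 of 54 lower and 1 higher. In the list of natriuretic and load response genes 1 of 19 was lower and 1 higher, and in that of cardiac transcription factors 1 of 24 was lower and 0 higher; MEF2C was the lower one in both. The natriuretic peptide gene NPPA, a known marker of load, stood at 14.91 in both E5 pools. Cell cycle genes had 0 of 35 lower and 1 higher, and the Notch, BMP, Wnt and FGF pathways 0 of 45 lower and 2 higher. Lists of immediate early genes (18 probe sets), hypoxia and glycolysis (22) and oxidative and lipid metabolism (19) had none in either direction.

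Markers of other cell types were compared between the same pools, again with no share over all tested for the higher counts. Endothelial and endocardial markers (26 probe sets), smooth muscle and outflow tract markers (6) and erythroid markers (9) had none lower or higher, and the summed erythroid level was 18.04 in the normal and 17.90 in the banded pool. Cushion mesenchyme and fibroblast markers had 0 of 22 lower and 2 higher, leukocyte markers 0 of 13 lower and 2 higher, and epicardial markers 0 of 9 lower and 1 higher. Liver and yolk sac markers had 3 of 8 higher. Of these, transthyretin (TTR) stood at 3.37 in the normal and 7.71 in the banded pool, fibrinogen beta (FGB) at 3.47 and 4.90, and apolipoprotein A1 (APOA1) at 10.49 and 11.29. The other APOA1 probe set went from 8.98 to 9.63. ALB, the brighter APOB probe set and FGA stayed under 5, at 3.90, 2.71 and 2.28 in the normal and 4.36, 2.81 and 2.32 in the banded pool. No probe set of this list was lower after banding. The differences ran from 0.04 to 4.35, with a median of 0.55. The summed level of the 8 was 10.96 in the normal and 11.80 in the banded pool. The part of these cells in the decreases was not tested.

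Across normal development the members had no common course. Their median level was 5.98 at E4, 6.89 at E5 and 6.47 at E6 in pools of both ventricles, 6.17, 6.41 and 6.22 in the left ventricle at E6, E8 and E10, and 6.54, 6.53 and 6.43 in the right. Over all tested probe sets the median stayed between 8.95 and 9.06. The E5 value stands out because the rule selects for a high normal E5 level. To keep the test apart from the banding difference, the stage trend was fitted with limma on the E4, E6, E8 and E10 means without E5. The level condition of the rule used all 12 pools, so the fit is not apart from that condition. Of the 72 members 12 passed at an adjusted p under 0.05 (Benjamini-Hochberg over 18930), or 16.7% against 9.76% of all tested. Of these 6 rose, as did 4.68% of all tested, and 6 fell, as did 5.08%. The even split depended on the stages used, since without E4 1 rose and 5 fell. With the normal E5 stage in the fit 2 rose and 9 fell, and 11.4% of all tested passed. The rule selects for a high normal E5 level, so that fit is not apart from the rule and cannot speak to the split. At an unadjusted p under 0.05 the shares were 34.7% and 34%.

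**Figure D3:**
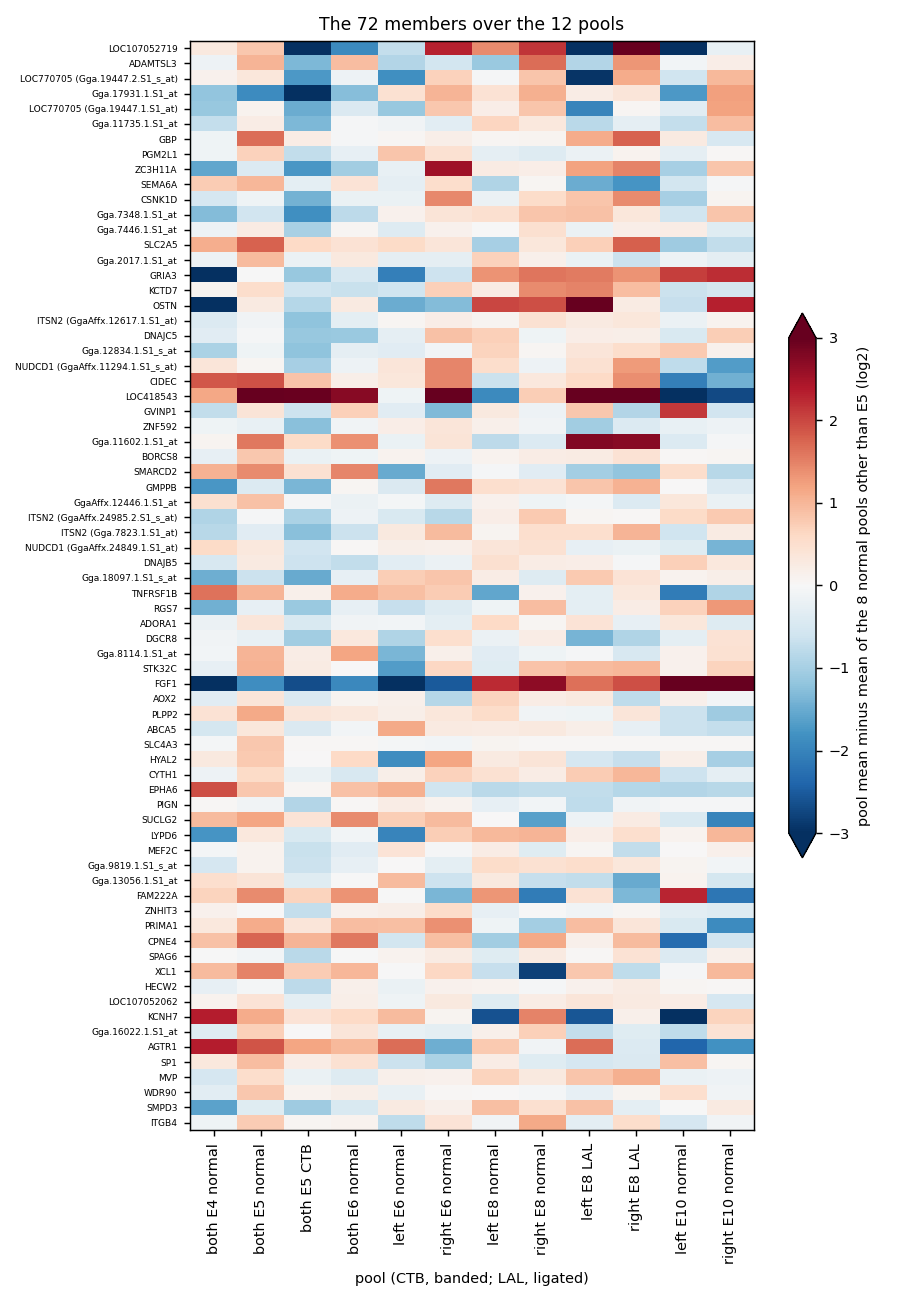
The 72 members (rows, widest banding decrease first) in the 12 pools (columns), coloured by pool mean minus the mean of the 8 normal pools other than E5, in log2 units, from -3 or lower (blue) to 3 or higher (red). The normal E5 column is mostly red and the banded column mostly blue, as the rule requires, while the other columns show no common pattern.

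Of the members that passed, FGF1 rose most steeply with age. Its pool means were 2.80 at E4, 4.70 at E5 and 4.62 at E6 in both ventricles, 2.56, 8.80 and 10.22 in the left ventricle at E6, E8 and E10, and 4.05, 9.24 and 10.21 in the right. The slope was 1.38 ± 0.21 per day (SE, n = 4 stage means, limma adjusted p = 0.0399). The banded pool, at 3.90, thus lay between the E4 and the normal E5 pool. All of these levels lay under the level minimum of 5, and the rule itself sets the banded level below normal E5. GRIA3 went from 2.57 at E4 to 6.62 at E5 and 6.15 at E6, then to 7.98 (left) and 8.24 (right) at E8 and to 8.71 and 8.85 at E10, a slope of 1.06 ± 0.13 per day (adjusted p = 0.0323). With the normal E5 stage, which the rule used, in the fit it no longer passed (limma adjusted p = 0.0613). RGS7, which dampens G protein signalling, rose by 0.41 ± 0.03 per day (adjusted p = 0.0200), from 3.69 at E4 to 5.82 and 6.45 at E10. FGF1 and RGS7 reached the level of 5 only in E8 and E10 pools, so their late levels admitted them to the members. The other members that rose were GVINP1, ITSN2 at GgaAffx.24985.2.S1_s_at and Gga.12834.1.S1_s_at, by 0.24 to 0.29 per day.

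Of the members that passed, AGTR1 fell most steeply. It stood at 8.20 at E4, 7.74 at E5 and 6.82 at E6 in both ventricles, at 7.54, 6.63 and 3.47 in the left ventricle at E6, E8 and E10, and at 4.38, 5.76 and 4.02 in the right, with a slope of -0.67 ± 0.11 per day (adjusted p = 0.0444). KCNH7 fell with a slope of -0.63 ± 0.06 (adjusted p = 0.0231), from 8.23 at E4 to 2.33 in the left ventricle at E10, although the right ventricle still held 6.54. CIDEC stood at 7.32 at E4 and, by E10, at 3.41 (left) and 4.00 (right), with a slope of -0.58 ± 0.04 (adjusted p = 0.0194). TNFRSF1B, EPHA6 and SLC2A5 fell by slopes of -0.55, -0.48 and -0.33 per day. EPHA6 reached the level of 5 only in the E4 pool, at 5.56, so that pool admitted it to the members. For the members of AGTR1, KCNH7 and TNFRSF1B the banded level lay below the level at E4 and, as the rule requires, below that at normal E5. Members lowered by banding thus included probe sets with opposite courses in normal growth.

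**Figure D4:**
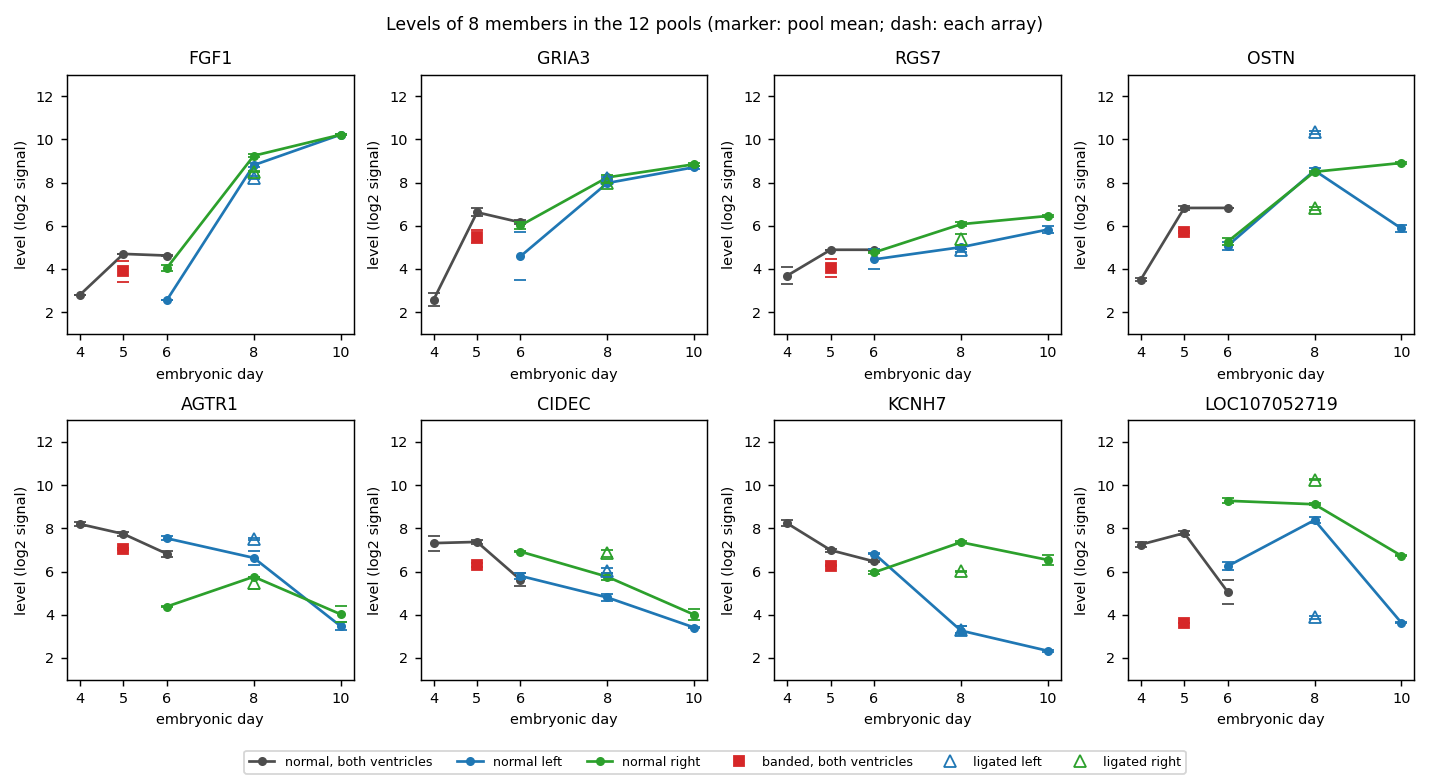
Levels (log2 signal) of FGF1, GRIA3, RGS7, OSTN, AGTR1, CIDEC, KCNH7 and LOC107052719 against embryonic day; circles and lines are normal pools (grey both ventricles, blue left, green right), the red square is the banded pool, open triangles are the ligated pools, and dashes mark the single arrays. FGF1, GRIA3 and RGS7 rise with age, AGTR1 and CIDEC fall, and KCNH7 and LOC107052719 separate by ventricle.

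Young pools held both ventricles and old pools a single one, so age and kind of pool were joined in that fit. A second limma fit used only the left and right pools at E6, E8 and E10 with side as a term. In it 9 members passed, or 12.5% against 7.13% of all tested, with 4 rising (3.49% of all tested) and 5 falling (3.63%). After quantile normalization 6 passed against 7.24% of all tested, 4 rising and 2 falling. Of the 5 that fell, TNFRSF1B and ITSN2 at Gga.7823.1.S1_at were lost (limma adjusted p = 0.0528 and 0.0522), as was ABCA5. FGF1 rose by 1.73 ± 0.30 per day (SE, n = 6 pools, adjusted p = 0.0384), GRIA3 by 0.87 ± 0.16 (adjusted p = 0.0407), RGS7 by 0.38 ± 0.05 (adjusted p = 0.0266) and SP1 by 0.32 (adjusted p = 0.0237). Of the members that passed, LOC418543 fell most, at a slope of -1.46 ± 0.17 (adjusted p = 0.0196), from 6.89 (left) and 11.65 (right) at E6 to 2.50 and 4.32 at E10. CIDEC fell at a slope of -0.66 ± 0.05 (adjusted p = 0.0114) and TNFRSF1B at -0.58 ± 0.11 (adjusted p = 0.0480), and ABCA5 and the ITSN2 probe set Gga.7823.1.S1_at also fell. From E6 to E10, taken as single pools, 30 members differed at least 2-fold in the left ventricle (41.7% against 10.8% of all tested) and 22 in the right (30.6% against 12.1%). These 2-fold shares were not matched for the low level of the members. Both fits called 5 members, with the same direction in each. The 2 fits share the left and right pools of E6, E8 and E10, so they are not independent. The probe sets of ITSN2 differed in course, since GgaAffx.24985.2.S1_s_at rose in the first fit by 0.29 per day and Gga.7823.1.S1_at fell in the second at a slope of -0.20. The calls rested on few pools. Without E8 or without E10 no member passed the stage trend, but 0 of all tested did, so these runs cannot set the members apart. In them 26 and 38 members (36.1% and 52.8%, against 23.9% and 31.4% of all tested) had an unadjusted p under 0.05. Without E6 7 passed, against 2.95% of all tested, and without E4 6, against 3.05%. Without the pair of pools of E6, E8 or E10 no member passed the second fit, and again 0 of all tested did. In these runs 29, 29 and 28 members had an unadjusted p under 0.05, or 38.9% to 40.3% against 12.7% to 17.2% of all tested.

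Between the E4 and E6 pools of both ventricles, a step of normal growth that spans the day of banding, 18 members differed at least 2-fold with arrays that did not overlap, or 25% against 4.7% of all tested. Of these 13 were higher at E6, where 3.4% of all tested were, and 5 lower, where 1.29% were. GRIA3 was higher by 3.58 on the log2 scale, OSTN by 3.32, from 3.51 to 6.83, and FGF1 by 1.82. LOC107052719 was lower, at -2.19, from 7.25 to 5.06, as were KCNH7 at -1.76 and CIDEC at -1.70. For all of these but KCNH7, the E6 pool of both ventricles lay outside the range of the left and right E6 pools. LOC107052719 stood at 6.25 (left) and 9.28 (right) in those pools, the latter above E4, and OSTN at 5.07 and 5.27. Such steps thus depended on which E6 pool was used, and the reason was not tested. For OSTN and GRIA3 the banded levels of 5.71 and 5.50 lay between E4 and normal E5, the latter bound being set by the rule. These single pools have no test, and the low level of the members bears on the share. Among probe sets with a mean level under 8, a split made after seeing the data, 28.8% of 59 members and 9.09% of 6634 tested passed. In this E6 pool the liver markers were also high, with ALB at 9.07, APOB at 8.60, FGA at 7.12 and TTR at 10.54, and a summed level of 12.51 against 10.86 at E4; their part was not tested.

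No member differed between left and right ventricle beyond the threshold. In the limma fit over the 4 left-right pairs with stage and treatment as a block, 0 of 72 members passed, where 0.697% of all tested did, and the lowest adjusted p among them was 0.0595. The fit also held the normal E6 pool of both ventricles, placed midway between left and right. At an unadjusted p under 0.05 there were 22, or 30.6% against 14.7% of all tested, with 15 of them higher in the right. The median left minus right difference was -0.18 over the members and 0.01 over all tested. In all 4 pairs, 17 members were higher in the right (23.6% against 12.3% of all tested) and 7 higher in the left (9.72% against 13.1%).

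The widest differences each way, none of which passed, were these. FAM222A was higher in the left by 2.75 ± 0.70 (SE, 4 pairs, limma adjusted p = 0.145), with left levels of 4.67, 6.01, 5.13 and 6.98 at E6, normal E8, ligated E8 and E10, against 3.33, 2.60, 3.33 and 2.52 on the right. GVINP1, whose human counterpart belongs to the very large interferon-inducible GTPases, had a left excess of 1.45 ± 0.50 (adjusted p = 0.253). LOC107052719 differed, left against right, by -3.31 ± 1.03 (adjusted p = 0.212), with left levels of 6.25, 8.38, 3.88 and 3.63 against right levels of 9.28, 9.11, 10.26 and 6.73. KCNH7 had a difference of -2.53 ± 0.83 (adjusted p = 0.233); its left and right levels were 6.83 and 5.96 at E6 but 3.27 and 7.36 in the normal E8 pools. Of these 4 members, KCNH7 alone changed sides. Both LOC770705 probe sets were higher in the right in all 4 pairs, and Gga.19447.1.S1_at, at -1.54 ± 0.24, held the lowest adjusted p of 0.0595.

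Pair by pair, with 1 pool on each side and no test, at least 2-fold differences were frequent among the members. The shares over all tested given here were not matched for the low level of the members. At E6 there were 26, or 36.1% against 4.41% of all tested, 5 with the higher level on the left (1.52% of all tested) and 21 on the right (2.88%). In the normal E8 pools there were 13, or 18.1% against 4.08%, 3 of them toward the left (1.11%) and 10 toward the right (2.97%). In the ligated E8 pools there were also 13, against 2.06% of all tested, but here 7 leaned to the left (1.1%) and 6 to the right (0.961%). At E10 there were 22, or 30.6% against 6.22%, 7 of them toward the left (2.6%) and 15 toward the right (3.62%). ADAMTSL3 had left and right levels of 5.36 and 5.70 at E6 but of 5.13 and 7.92 in the normal E8 pools.

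After left atrial ligation the members did not move in 1 direction. In the left ventricle 20 differed at least 2-fold between the ligated and the normal E8 pool with arrays that did not overlap, or 27.8% against 4.27% of all tested. Of these 13 were higher, where 2.54% of all tested were, and 7 lower, where 1.73% were. In the right ventricle there were 17, or 23.6% against 4.12%, with 11 higher (1.9% of all tested) and 6 lower (2.22%). The median difference was -0.04 (left) and -0.12 (right), against -0.86 after banding, where the rule set it. Among probe sets with a mean level under 8, 27.1% of members and 8.5% of all tested passed in the left, and 22% and 8.5% in the right. The ligated and normal E8 pools took no part in the banding difference, but they counted towards the level condition. ITGB4, for example, reached 5 only in the normal right E8 pool, at 5.16.

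In both ventricles 7 members were higher after ligation, or 9.72% against 0.777% of all tested. LOC418543 stood at 5.12 in the normal and 10.23 in the ligated left ventricle, and its right levels were 7.76 and 10.91. It also differed by as much between normal pools, with 11.65 in the right ventricle at E6 and 4.32 at E10. Gga.11602.1.S1_at went from 5.12 to 8.67 on the left side and from 5.48 to 8.63 on the right, above every normal pool, of which the highest was the E5 pool at 7.49. XCL1 went from 5.75 to 7.24 on the left side and from 3.63 to 5.68 on the right. SLC2A5 went from 2.41 to 4.11 and from 3.74 to 5.19, below 5 in 3 of the 4 pools. With all values under 5 set to 5, 5 members were higher in both ventricles, against 0.491% of all tested; SLC2A5 was lost in both (0 and 0.19) and XCL1 in the right (0.68). CIDEC, PRIMA1, which anchors acetylcholinesterase in membranes, and GBP were higher by 1.05 to 1.69. These members were thus lower in the banded than in the normal E5 pool and higher in both ligated than in the normal E8 pools.

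DGCR8 alone was lower in both ventricles by the 2-fold rule, where 1.05% of all tested were. Its left level was 7.51 in the normal and 6.29 in the ligated pool, and its right level 7.90 and 6.77. Opposite changes past 2-fold were seen in 2 members, against 0.037% of all tested. LOC107052719 went from 8.38 to 3.88 in the left ventricle and from 9.11 to 10.26 in the right. OSTN went from 8.56 to 10.32 on the left side and from 8.50 to 6.80 on the right. The left ventricle is the side from which ligation takes inflow, and the right the side that receives more.

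Several members passed 2-fold in 1 ventricle. Both LOC770705 probe sets were lower in the ligated left ventricle, Gga.19447.2.S1_s_at from 10.51 to 7.61 and Gga.19447.1.S1_at from 12.31 to 10.15, while in the right they stood at 11.38 and 11.66 and at 12.95 and 12.18. The kinase gene STK32C was higher in the left, from 6.43 to 7.74, and stood at 7.64 and 7.77 in the right. The SUCLG2 member was higher in the right, from 9.20 to 11.09, and stood at 10.85 and 10.68 in the left. Its other probe sets hardly moved in the right. They went from 12.44 to 12.32, from 12.19 to 12.26 and, at a low level, from 4.69 to 4.74. NUDCD1 at GgaAffx.11294.1.S1_s_at was higher in the right, from 5.31 to 6.75. The brighter NUDCD1 member, GgaAffx.24849.1.S1_at, went the other way there by less than 2-fold, from 8.22 to 7.57, and from 8.12 to 7.51 in the left. SEMA6A was lower in the right, from 6.56 to 4.73, and stood at 5.59 and 5.01 in the left. Whether these responses differ between the ventricles was not tested, since each rests on 1 pool per arm.

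**Figure D5:**
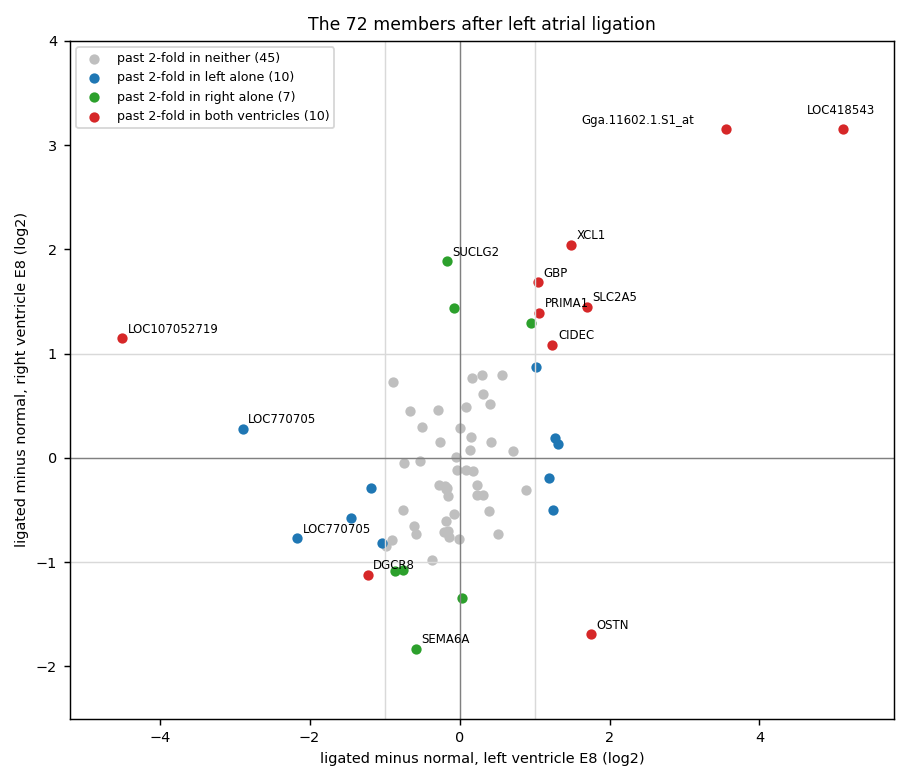
Ligated minus normal E8 pool mean (log2) in the left (x axis) and right ventricle (y axis) for the 72 members, coloured by whether the difference passed 2-fold with arrays that did not overlap; grey lines mark 2-fold. LOC418543 and Gga.11602.1.S1_at lie far up and right, whereas LOC107052719 and OSTN lie in opposite quadrants.

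Over both ventricles no probe set passed the limma contrast for ligation, among the members or among all 18930. At an unadjusted p under 0.05 there were 15 members, or 20.8% against 14.1% of all tested, with 7 higher and 8 lower. The contrast compares 2 ligated with 2 normal pools, but its SE also draws on the E6 and E10 pools in the fit. The lowest adjusted p among members was that of Gga.11602.1.S1_at, at a difference of 3.35 ± 0.45 (SE, adjusted p = 0.157). LOC418543 differed by 4.13 ± 0.87 (adjusted p = 0.243) and LOC770705 at Gga.19447.1.S1_at by -1.47 ± 0.34 (adjusted p = 0.249). A fit of the day 8 pools alone, with 1 residual degree of freedom, called 0 members and 0 of all tested. In it 26 members had an unadjusted p under 0.05, or 36.1% against 24.4% of all tested, with 13 higher and 13 lower. If left and right pools were dissected from shared hearts, which the labels do not say, these p-values are too small. By the 2-fold rule liver and yolk sac markers were higher in the ligated pools as well, 7 of 8 probe sets in the left ventricle and 3 of 8 in the right. Of all tested, 2.54% (left) and 1.9% (right) were. ALB stood at 4.10 in the normal and 11.45 in the ligated left ventricle, with right levels of 4.56 and 8.65. The summed level of the list went from 10.92 to 13.25 on the left side and from 11.13 to 12.29 on the right. Their part in the ligation values of the members was not tested.

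The annotation of the members resembled that of the other probe sets in part. A single gene symbol was available for 81.9% of members and 82.1% of all tested. IDs of the GgaAffx series made up 43.1% of members and 37.7% of all tested, and probe sets whose suffix _s_at marks probes shared by several transcripts made up 37.5% and 29.6%. Outside the E5 pools 70 of the 72 members reached the level of 5 in some pool, and 35 lay at 5 or more in all 12 pools.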

How the data were processed

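Expression was measured in 24 arrays of 12 pools of chick ventricle. The authors deposited 1 table with a log2 value per probe set and array; the log2 scale was read from the values. GCRMA and MAS5 appear in the submitters' processing notes; the sources used here do not say which made the table, with which version or on which genome build. GCRMA presses dim signals towards a common floor, so differences at low levels depend on that floor.

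Values were used as deposited and the 2 arrays of a pool were averaged. Genes come from GEO's platform annotation (27178 probe sets with 1 symbol, 177 with several, 11180 with none), which can be old; the gene IDs of all 59 annotated members were found in RefSeq's table for GRCg7b. No sequence was used. The members, the gene and marker lists and the tests were chosen with earlier results of these data known.

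Trends, left against right and ligation over both ventricles were tested two-sided by limma (version 3.58.1, R 4.3.3; lmFit, then eBayes; Benjamini-Hochberg over 18930 probe sets, threshold 0.05), with 2, 3, 4 and 4 residual degrees of freedom. They measure departure from a straight line or the spread of left-right differences, not variation between pools of a condition. For left against right and ligation they also measure how far the E6 pool of both ventricles lay from the midpoint of left and right. Single pools were compared by at least 2-fold with arrays that did not overlap, with no p. The fits were tested on simulated data. Named were the 10 widest banding decreases, the 3 brightest members, those next to the threshold, the 2 to 4 widest each way per comparison, members that share a gene, and members in a list; further members were named after their values were seen, to cover known roles. Alternatives covered thresholds, filters, scaling, floor, single arrays, left-out stages and limma settings. Array numbers did not pair pools: deviations of same-numbered arrays correlated between -0.10 and 0.08 over 66 pairs of pools.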

Additional observations from a re-analysis of the deposited data

Results flagged for a closer look

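The response to ligation went opposite ways in the 2 ventricles at LOC107052719, on all arrays: the left value was -4.50 and the right 1.15 on the log2 scale, a difference of -5.65. The same held at OSTN, where the left value was 1.76 and the right -1.69, a difference of 3.45. Each rests on 1 pool per arm, and the difference was not tested.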

How the results depend on the processing

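The number of members followed the threshold: 28 at -1 and 220 at -0.5, in place of 72. Leaving out 1 array of each pool gave 131 to 141. Without the overlap condition, with other level minimums, a floor of 5, quantile normalization or median centring it was 52 to 81. At 1.5-fold in place of 2-fold, the counts were 32 for ligation in the left (16 higher, 16 lower; 12.4% of all tested), 36 in the right (17 higher, 19 lower; 12.3%) and 30 for E4 to E6 (13% of all tested); single arrays gave 18 to 23, 18 to 19 and 16 to 17, and in the right 1 of these sets of arrays gave an even split of 9 and 9. With a floor of 5 these counts were 15, 14 and 13, against 3.28%, 3.25% and 3.77% of all tested. With single arrays 4.43% to 5.02% of all tested passed these comparisons. With no filter on low values 0 members passed the stage trend (21 at an unadjusted p under 0.05) and 1 the E6 to E10 trend. Of all tested, 0.0663% and 0.772% passed these. Without the E4, E6, E8 or E10 stage, 6, 7, 0 and 0 passed the stage trend (25, 27, 26 and 38 unadjusted), and without the E6, E8 or E10 pair 0 passed the E6 to E10 trend (29, 29 and 28 unadjusted). Of all tested, 3.05%, 2.95%, 0% and 0% passed the stage trend in these runs, and 0% the E6 to E10 trend. Single arrays gave 11 to 11 and 7 to 7, against 7.83% to 8.18% and 4.74% to 6.1% of all tested. For left against right 1 member passed with a trended prior, against 1.48% of all tested. There single arrays gave 0 to 1, against 0.449% to 0.523%. For ligation over both ventricles they gave 0 to 0, against 0% to 0.0158%. With single arrays in the fit, the array number as a replicate block and the pool as a random effect, 20, 17, 11 and 6 members passed in the stage trend, the E6 to E10 trend, left against right and ligation, against 23.6%, 17.5%, 6.56% and 2.86% of all tested. The larger degrees of freedom of that fit come from technical arrays, and the numbers do not pair the pools. With the normal E5 stage, which the rule used, 11 members passed the stage trend against 11.4% of all tested. Of these 2 rose and 9 fell, and 3 named calls were lost. Directions were checked for members named by rule, in banding and in the comparisons they passed. None turned, but the balance of higher to lower counts did shift as given here. For banding with single arrays the rule fixes the direction. Named differences that did not pass, and members named for known roles or for lying next to the threshold, were not checked in this way. The limits are 1 pool per condition, no sham-operated pool, dim members with noisy arrays, and an annotation of uncertain age.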
